A study of Mus musculus with 15 samples.

Results

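The collagen genes are the genes whose symbol is Col, a number, the letter a and a further number, which covers 44 of the 29659 genes in each library. They were read in thalamic tissue of mice aged 4.5 months, in 15 bulk RNA-seq libraries, each a single column of log2 values. The 5EL group (n = 5) carried the 5xFAD amyloid transgenes on an APOE4+/+ background with Lilrb4a intact, and the 5ELKO group (n = 4) was 5xFAD/APOE4+/+ with Lilrb4a−/−. The EL group (n = 3) was APOE4+/+ with Lilrb4a intact and no 5xFAD transgene, and the ELKO group (n = 3) was APOE4+/+ with Lilrb4a−/−. Every group was thus homozygous for the human APOE4 knock-in, and no Cre driver that would limit the Lilrb4a deletion to a cell type is named. The 5xFAD transgenes are driven by a neuronal Thy1 promoter. The animals had been perfused with saline before the right hemisphere was dissected. The collagens were divided into 11 fibrillar genes, 8 genes of the vascular basement membrane (Col4a1 to Col4a6, Col15a1 and Col18a1) and 25 others.

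Collagens are secreted or membrane-bound proteins whose chains wind into triple helices. Fibrillar collagens (types I, II, III, V, XI, XXIV and XXVII) build the fibres of connective tissue, which in brain lie mainly in the meninges and around larger vessels. Type IV collagen forms the sheet-like network of the basement membrane that endothelial cells and pericytes lay down around every brain capillary, and types XV and XVIII join it there. The remaining collagens coat fibrils (the FACIT types, such as IX, XII, XIV and XVI), form short-chain networks (type VIII) or beaded filaments (type VI), or span the plasma membrane, as does the neuronal Col25a1, whose shed ectodomain was originally purified from amyloid plaques.

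Lilrb4a, the deleted gene, lay between 2.40 and 2.66 in 5EL and between 2.34 and 2.42 in EL, against at most 2.33 in the 7 libraries of 5ELKO and ELKO, so the labels held, although the margin was narrow for EL. Some libraries stood apart. The mean of 12 choroid plexus epithelium markers was 8.58 in 5EL replicate 1 and 8.95 in ELKO replicate 2, against 6.40 to 6.92 in the other 13 libraries. Mouse Apoe, which the knock-in replaces, was 10.90 in ELKO replicate 1 and 5.92 to 6.37 elsewhere, so that library went against its label in this gene. EL replicate 3 had the highest mean of 8 thalamic neuron markers (13.17, against 12.53 to 12.98), and the defining thalamic markers were abundant in all 15 libraries. Endothelial markers (10 genes) had similar means in EL (9.52 to 9.67), ELKO (9.52 to 9.67), 5EL (9.46 to 9.65) and 5ELKO (9.58 to 9.76). Mean markers of pericytes and smooth muscle lay between 8.24 and 8.51, and of neurons outside the thalamus between 6.19 and 6.95, over the 15 libraries. The hepatocyte mean was 4.82 to 5.64 in EL, 4.82 to 5.51 in ELKO, 4.85 to 5.47 in 5EL and 5.22 to 5.66 in 5ELKO. Its list shares Ttr with the choroid plexus list. In EL the mean was 5.64 in replicate 1 against 4.96 and 4.82, and Alb was 8.59 there against 5.91 and 5.75. In bulk tissue, fewer cells of a type and less RNA per cell cannot be told apart.

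Of the 44 collagens, 38 reached a log2 value of 3.32 in enough libraries to be tested. The other 6 were Col22a1, Col6a4, Col28a1, Col6a5, Col6a6 and Col10a1, all from the class of other collagens, with means from 1.53 for Col10a1 to 3.11 for Col22a1. All 11 fibrillar and all 8 basement membrane genes were tested. After subtracting the log2 of the exonic length in kilobases, which puts genes of different length on a common scale, Col25a1 had the highest level per kilobase of all collagens (8.24). It was followed by the capillary chains Col4a2 (6.67) and Col4a1 (6.49), then by the FACIT chain Col9a3 (6.01) and by Col18a1 (5.63), the endostatin precursor. Col9a2 stood at 5.59. The leading fibrillar genes on this scale were Col1a2 (5.05), Col11a2 (4.74) and Col1a1 (4.19). Within type IV the order was Col4a2, Col4a1, Col4a5 (3.28), Col4a6 (1.45), Col4a4 (0.70) and Col4a3 (0.49), so the chains that prevail in capillaries were well above Col4a3 and Col4a4 and, by less, above Col4a5, the chains that together build the kidney filter.

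**Figure D1:**
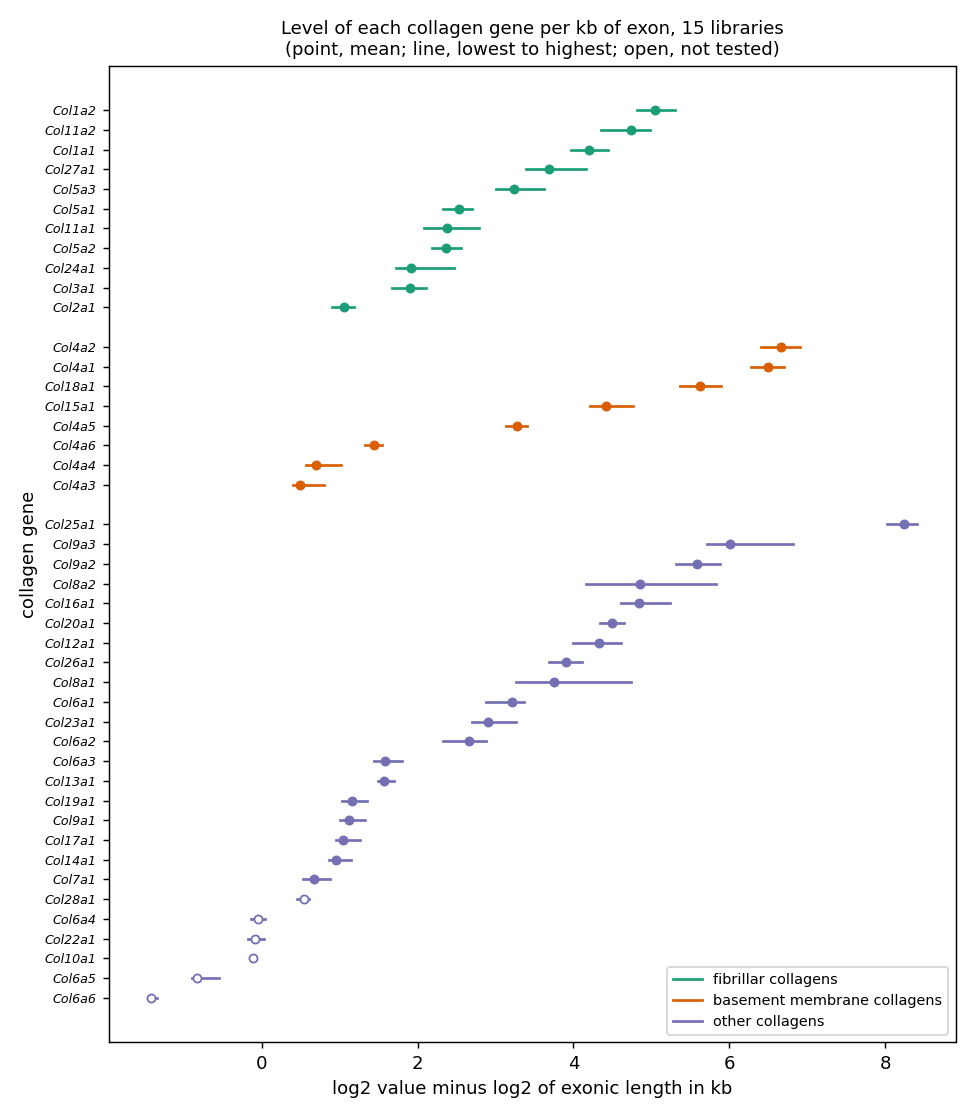
Level of the 44 collagen genes per kilobase of exon on the log2 scale (x axis), by class. Points are means of the 15 libraries and lines run from the lowest to the highest library. Open points are the 6 genes not tested. Col25a1 (8.24) leads, followed by Col4a2 (6.67) and Col4a1 (6.49).

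Exons of neighbouring genes overlap some of these values, since reads were counted without regard to strand. For Col9a3, 6.07% of exonic bases are shared with the opposite-strand gene Tcfl5. For Col4a3, 5.65% are shared with C430014B12Rik. For Col4a1 and Col4a2 the shares are 0.295% and 0.982%.

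The widest deviations of the collagens were those of single libraries. In ELKO replicate 2, 22 of the 38 tested collagens had the highest value of their group (57.9%, against 27.1% of all genes tested), and in 5EL replicate 1 this held for 17 of 38 (44.7%, against 19.4% of all genes). The spread was widest for Col8a1 and Col8a2, the chains of the short-chain type VIII network found in vessel walls and beneath endothelia, and for Col9a3. Col8a1 was 7.69 in 5EL replicate 1 and 6.46 to 6.78 in the other 5EL libraries, and it was 7.71 in ELKO replicate 2 beside 6.52 and 6.46. It ranged from 6.24 to 6.76 in EL and from 6.56 to 6.89 in 5ELKO. The same 2 libraries were thus above every other library.

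Col9a3, a chain of the FACIT type IX, was 8.64 in 5EL replicate 1 and 8.76 in ELKO replicate 2, and lay between 7.66 and 7.98 in the other 13 libraries. Col8a2 was 7.57 and 7.995 in these libraries. The remaining libraries reached from 6.33 in EL replicate 3 to 7.38 in 5EL replicate 2, so Col8a2 separated them less clearly. ELKO replicate 2 was also the highest of the 15 libraries in Col4a3 (4.12, others 3.72 to 3.85) and Col4a4 (4.43), and 5EL replicate 1 was second in Col4a4 (4.27). The endothelial chain Col4a1 did not share this pattern, at 9.40 in 5EL replicate 1 and 9.33 in ELKO replicate 2, inside the range of their groups.

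**Figure D2:**
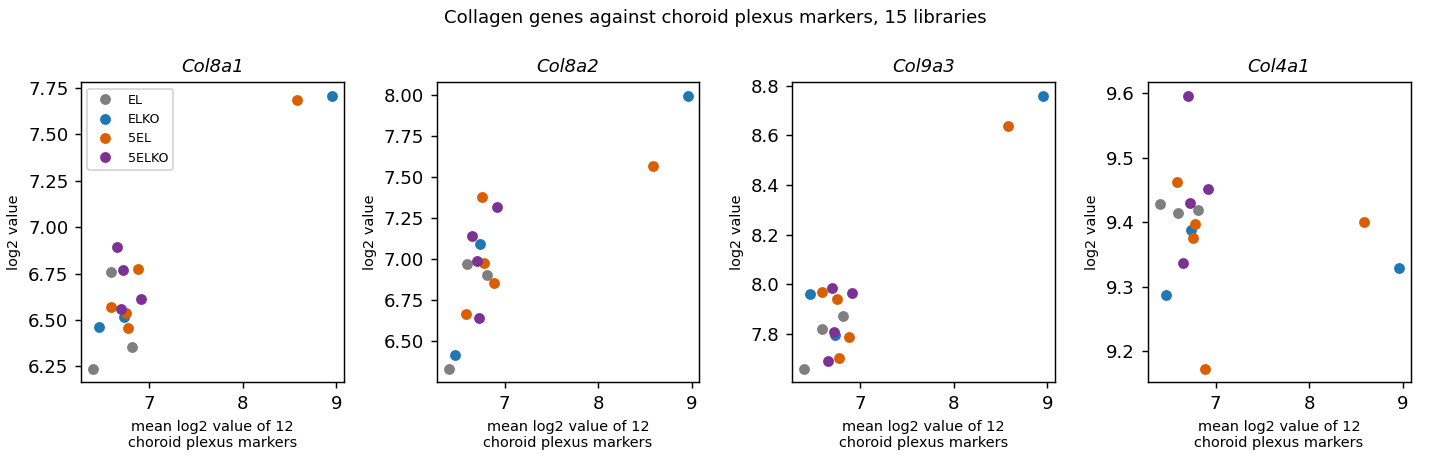
Log2 value of Col8a1, Col8a2, Col9a3 and Col4a1 (y axes) against the mean log2 value of 12 choroid plexus markers (x axes) in the 15 libraries, coloured by group. The 2 libraries at 8.58 and 8.95 on the x axis have the highest Col8a1, Col8a2 and Col9a3, whereas their Col4a1 lies within the range of the others.

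These are the 2 libraries rich in choroid plexus transcripts. Their values of Ttr, the transthyretin gene that marks choroid plexus epithelium, were 13.71 and 14.66, against 7.72 to 10.31 elsewhere. The list mean ran from 6.40 to 6.81 in EL, 6.47 to 8.95 in ELKO, 6.59 to 8.58 in 5EL and 6.65 to 6.92 in 5ELKO, and no marker of this list was undetected. The mean of 16 meningeal and perivascular fibroblast markers (15 of them tested) was highest in the same libraries, at 6.31 and 6.46 against 5.93 to 6.20 elsewhere. Not every marker followed the mean. In 5EL replicate 1 Dcn was 7.53, inside the range of the other 5EL libraries (7.47 to 7.81). Slc13a4 was 7.45 there, against 6.01 to 6.27 in the other 5EL libraries. Whether either tissue contributed to the collagen values was not tested. At the other end, EL replicate 3 held the lowest value of its group for 20 of 38 collagens (52.6%, against 43.1% of all genes).

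**Figure D3:**
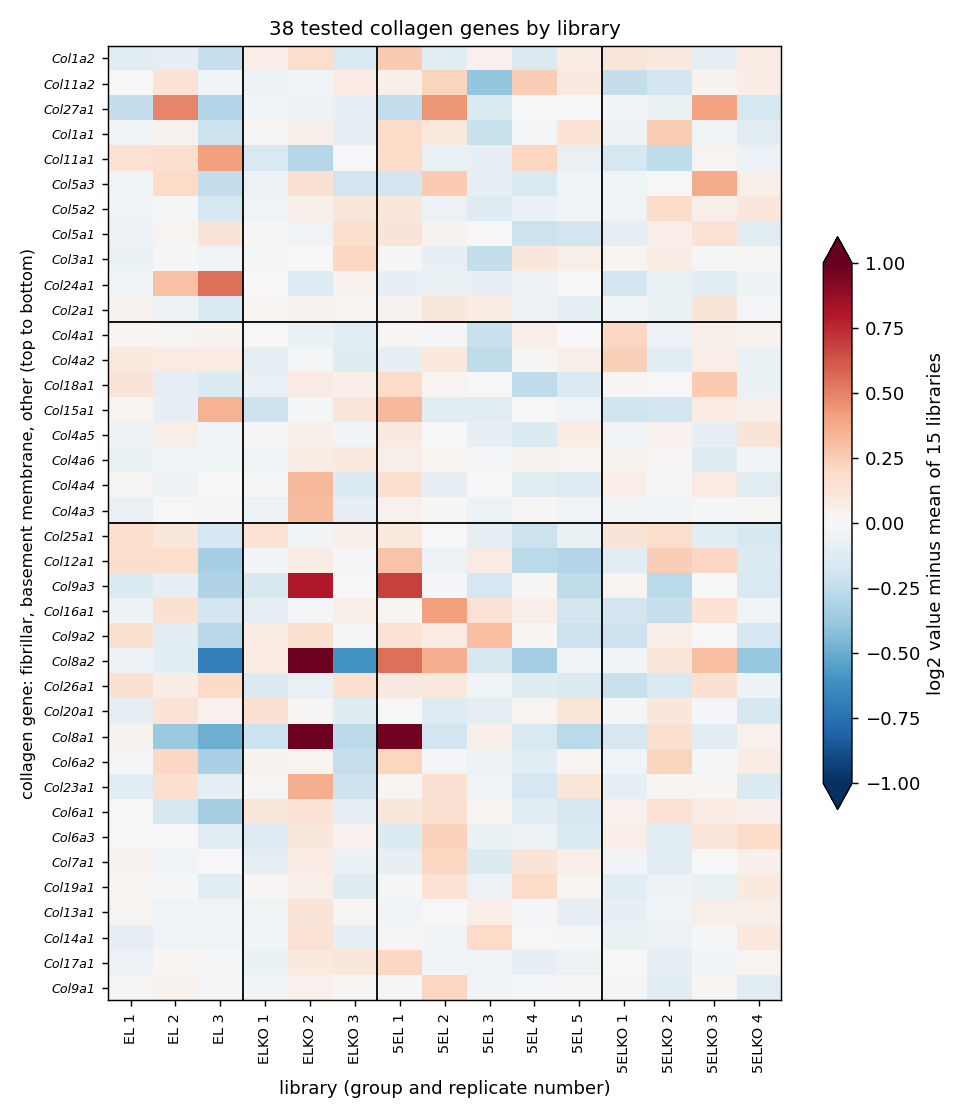
Deviation of each of the 38 tested collagens (rows, by class from fibrillar to other) from its mean of the 15 libraries, in log2 units (colour, from −1 to 1), with libraries in columns by group. Col8a1 and Col9a3 stand high in ELKO replicate 2 and 5EL replicate 1, and Col8a2 is high in ELKO replicate 2 and low in EL replicate 3 and ELKO replicate 3, while no group stands out as a whole.

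Values of further abundant members follow. Col1a2, which with Col1a1 forms type I collagen, was 8.58, 8.59 and 8.45 in EL and 8.75, 8.86 and 8.53 in ELKO. It was 8.94, 8.58, 8.72, 8.54 and 8.75 in 5EL and 8.80, 8.78, 8.59 and 8.77 in 5ELKO. Col1a1 was 6.87, 6.94 and 6.70 in EL, 6.92, 6.96 and 6.81 in ELKO, 7.10, 7.01, 6.68, 6.89 and 7.05 in 5EL, and 6.86, 7.16, 6.87 and 6.80 in 5ELKO. The lowest library of Col1a2 was EL replicate 3, and that of Col1a1 was 5EL replicate 3.

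Col11a2, a further chain of type XI collagen, was 7.52, 7.67 and 7.48 in EL, 7.46, 7.49 and 7.61 in ELKO, 7.58, 7.74, 7.13, 7.77 and 7.61 in 5EL, and 7.29, 7.33, 7.55 and 7.60 in 5ELKO. Col9a2, a chain of type IX, was 7.38, 7.11 and 6.94 in EL, 7.30, 7.38 and 7.19 in ELKO, 7.36, 7.30, 7.52, 7.22 and 6.998 in 5EL, and 7.01, 7.29, 7.21 and 7.05 in 5ELKO. Unlike its partner Col9a3, Col9a2 did not rank 5EL replicate 1 or ELKO replicate 2 above all other libraries, since 5EL replicate 3 was the highest.

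Deleting Lilrb4a in 5xFAD mice, the comparison of 5ELKO with 5EL, left the collagens without a called difference. With limma and Benjamini-Hochberg adjustment, 0 of 38 collagens had an adjusted p under 0.05, where 0.0191% of the 15743 genes tested did. At a nominal p under 0.05 there were also 0 of 38, against 2.49% of all genes, and no collagen separated the groups completely, as 1.06% of all genes did. The median difference was −0.01 over the collagens and 0.00 over all genes, with 17 collagens higher and 21 lower. By class, the median was 0.02 for the fibrillar genes, 0.03 for the basement membrane genes and −0.05 for the others. On the deposited scale the 95% intervals stayed within 1.5-fold in either direction for 38 of 38 genes, and the largest difference in size was 0.17. That scale draws low values together, so for collagens of low level a larger change in RNA is not excluded. Of 12 hepatocyte markers 11 were higher in 5ELKO at a nominal p under 0.05, and 3 of them (Serpina3k, Bhmt and Alb) were the only genes of the comparison at an adjusted p under 0.05 by limma. All 12 choroid plexus markers were lower in 5ELKO (median −0.33), 0 of them at a nominal p under 0.05. Their part in the collagen values was not tested.

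The smallest nominal p in this comparison was that of Col5a2, a chain of type V collagen, which helps to set fibril diameter. Its values were 5.74, 5.57, 5.50, 5.56 and 5.58 in 5EL replicates 1 to 5 and 5.59, 5.81, 5.68 and 5.74 in 5ELKO replicates 1 to 4. The groups overlapped through 5EL replicate 1, 1 of the 2 libraries with high choroid plexus markers. The difference was 0.12 (SE 0.06), with a nominal p of 0.0858 and an adjusted p of 0.999 by limma. Without 5EL replicate 1 it was 0.15 with a nominal p of 0.0232 and an adjusted p that rounds to 1. In that fit the count of collagens at a nominal p under 0.05 went from 0 to 1 (3.06% of all genes). Over each library left out in turn the difference ranged from 0.08 (without 5ELKO replicate 2, nominal p of 0.243) to 0.15 (without 5EL replicate 1 or 5ELKO replicate 1, the latter with a nominal p of 0.0354).

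**Figure D4:**
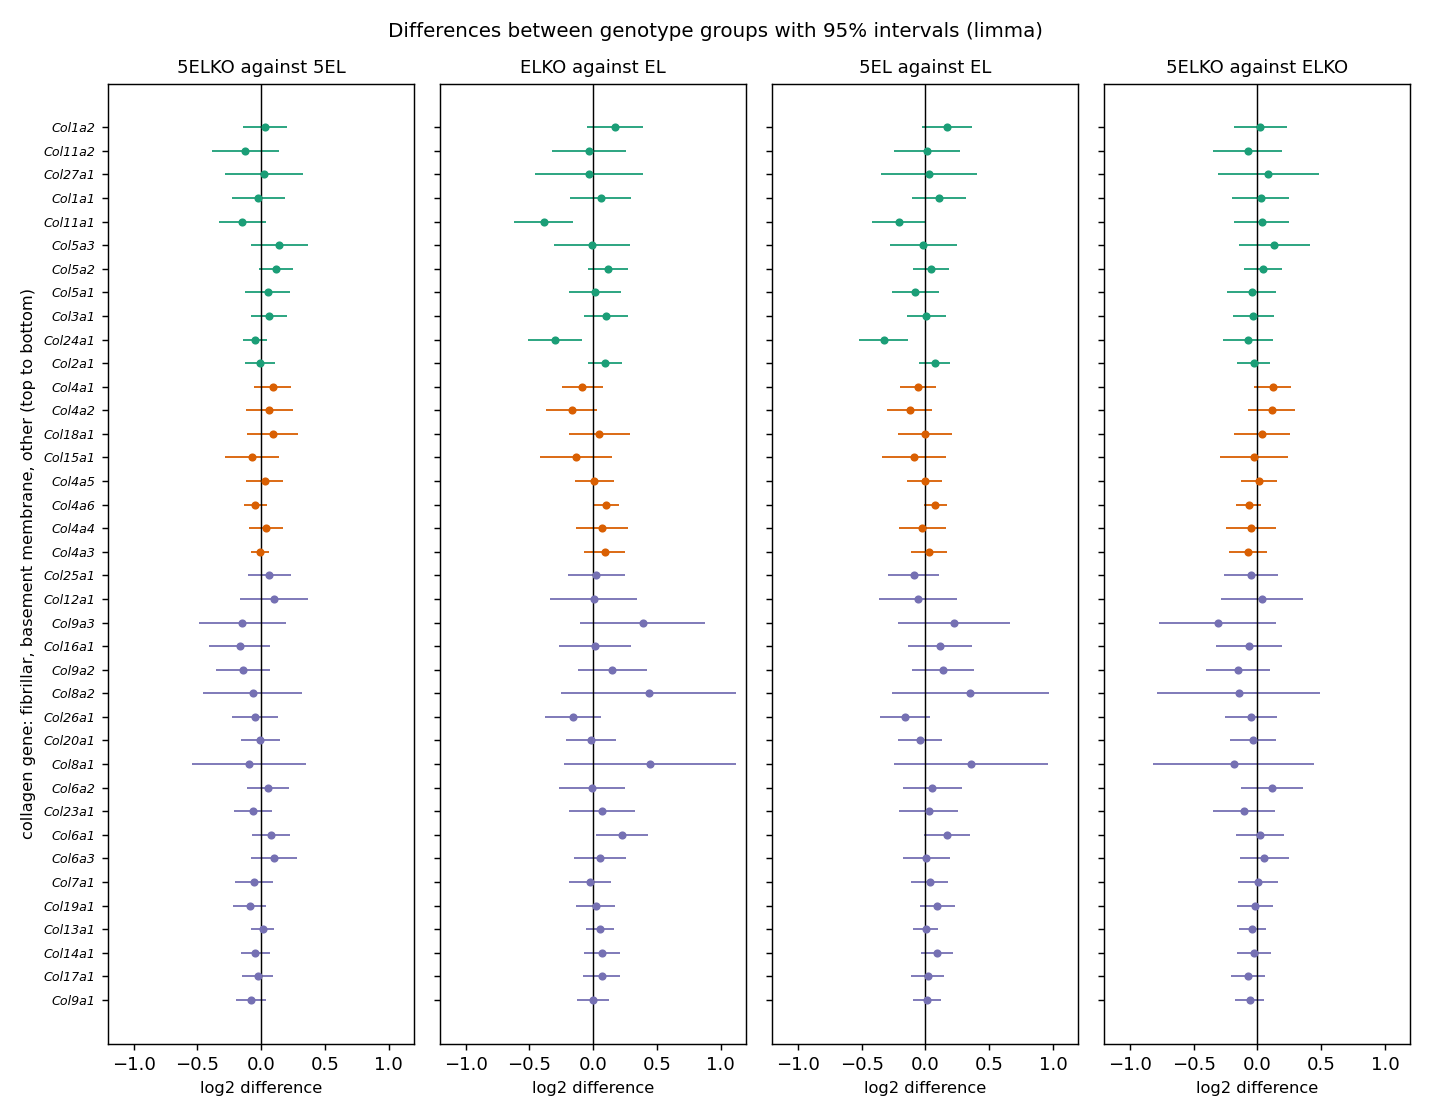
Log2 difference (points) with its 95% interval (lines) for the 38 tested collagens in 4 genotype comparisons, coloured by class from fibrillar (top) through basement membrane to other (bottom). In 5ELKO against 5EL every interval includes 0. In ELKO against EL the intervals of Col11a1, Col24a1 and Col6a1 do not, and in 5EL against EL those of Col24a1 and Col11a1 do not.

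Deleting Lilrb4a without 5xFAD, the comparison of ELKO with EL, gave 0 of 38 collagens at an adjusted p under 0.05 (0% of 15804 genes, by limma). At a nominal p under 0.05 there were 3 of 38 (7.89%, against 2.35% of all genes), with Col11a1 and Col24a1 lower and Col6a1 higher in ELKO. The groups did not overlap for 4 collagens (10.5%, against 4.59% of all genes), namely Col4a6 higher and Col11a1, Col4a1 and Col4a2 lower. The median difference was 0.04 over the collagens and 0.00 over all genes. EL and ELKO libraries of the same number shared deviations from their group means. The replicate number was made a block after these deviations were seen, and their source was not tested. With this block (6 libraries) 5 collagens had a nominal p under 0.05 (13.2%, against 7.06% of all genes). These were the same 3 with Col4a2 (−0.17, nominal p of 0.0162) and Col1a2 (0.17, nominal p of 0.0329), and limma's adjusted p was 0.69 for each.

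Col11a1 encodes a chain of type XI collagen, which nucleates thin fibrils. It was 6.19, 6.21 and 6.45 in EL replicates 1 to 3 and 5.89, 5.76 and 6.04 in ELKO replicates 1 to 3, so every ELKO library was below every EL library. The difference was −0.39 (SE 0.11, 95% interval −0.62 to −0.16), with a nominal p of 0.00263 and an adjusted p of 0.998 by limma. Leaving out each EL or ELKO library in turn gave differences of −0.46 to −0.30 with nominal p-values of 0.00141 to 0.0173.

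Col24a1, a fibrillar collagen of the developing skeleton and cornea, was 4.82, 5.14 and 5.40 in EL and 4.85, 4.72 and 4.88 in ELKO. The EL libraries were spread widely, and EL replicate 1 was below 2 of the 3 ELKO libraries. The difference was −0.30 (SE 0.10), with a nominal p of 0.00843 and an adjusted p of 0.998. It depended on EL replicate 3, without which it was −0.16 with a nominal p of 0.0603. That library was also the highest in Col11a1 (6.45), in Col15a1 within EL (7.43) and in thalamic neuron markers. All 8 thalamic neuron markers were lower in ELKO than in EL (median −0.18), 1 of them at a nominal p under 0.05. Their part in the Col11a1 and Col24a1 values was not tested.

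Col6a1, a chain of the beaded-filament type VI collagen made by fibroblasts and mural cells, was 5.34, 5.18 and 5.00 in EL and 5.46, 5.48 and 5.25 in ELKO. The groups overlapped at EL replicate 1 and ELKO replicate 3. The difference was 0.22 (SE 0.10), with a nominal p of 0.0336 and an adjusted p of 0.998. It had a nominal p above 0.05 without EL replicate 2 (0.0605), EL replicate 3 (0.177, difference 0.14), ELKO replicate 1 (0.0977) or ELKO replicate 2 (0.113). Meningeal and perivascular fibroblast markers were higher in ELKO in 14 of 15 (median 0.12, 1 at a nominal p under 0.05) and choroid plexus markers in 12 of 12 (median 0.72, 0 at a nominal p under 0.05), while pericyte and smooth muscle markers were higher in 2 of 10. Their part in the Col6a1 difference was not tested. The neighbouring Col6a2, whose chain assembles with that of Col6a1, had a difference of −0.01 (SE 0.12) between these groups.

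Col8a1 and Col9a3 differed between ELKO and EL by 0.44 (SE 0.32) and 0.39 (SE 0.23), and neither passed the nominal test (nominal p of 0.181 and 0.113, adjusted p = 0.998 by limma). Without ELKO replicate 2 these differences were 0.04 and 0.09. Without ELKO replicate 1, the library with high mouse Apoe, Col9a3 reached a nominal p of 0.0316 with a difference of 0.58. The intervals for Col8a1 (−0.23 to 1.12) and Col8a2 (−0.25 to 1.12) were the widest of all, so a change of 2-fold upwards in type VIII collagen lay within them.

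**Figure D5:**
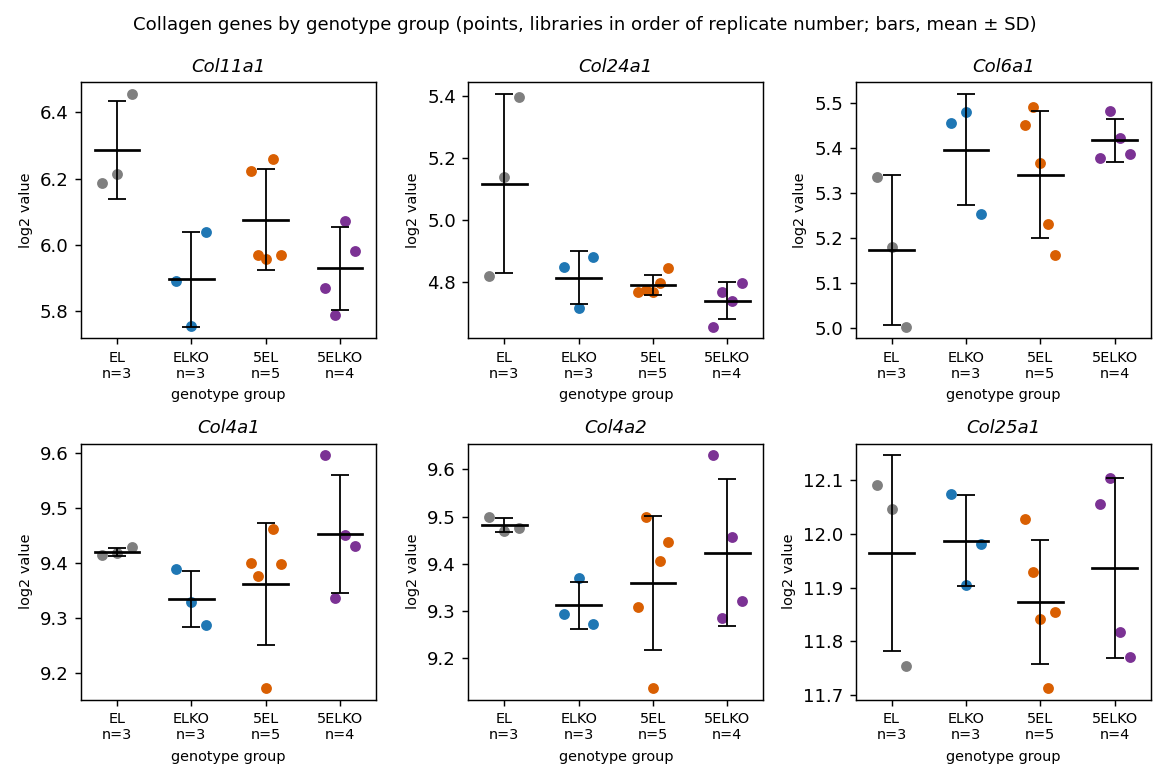
Log2 values of 6 collagens by genotype group, with each library as a point in the order of its replicate number and bars for the mean ± SD. In Col11a1 the 3 EL libraries (6.19 to 6.45) lie above the 3 ELKO libraries (5.76 to 6.04). Col24a1 is spread from 4.82 to 5.40 in EL, while Col4a1 in EL spans only 9.41 to 9.43.

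Adding 5xFAD to mice with intact Lilrb4a, the comparison of 5EL with EL, gave 0 of 38 collagens at an adjusted p under 0.05 (0% of 15804 genes, by limma). At a nominal p under 0.05 there were 2 of 38 (5.26%, against 7.70% of all genes), and both were fibrillar genes lower in 5EL, Col24a1 and Col11a1. In the same comparison all 8 thalamic neuron markers were lower in 5EL (median −0.27), 5 of them at a nominal p under 0.05, and their part in the collagen values was not tested. Complete separation was seen for 2 collagens (5.26%, against 3.26% of all genes), Col4a6 and Col14a1, each higher in 5EL by 0.08 and 0.09. The median difference was 0.02 over the collagens and 0.00 over all genes. These values share their EL libraries with the comparison of ELKO with EL, so Col24a1 and Col11a1 in it are not a separate observation of EL.

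Col24a1 was 4.77, 4.78, 4.77, 4.80 and 4.84 in 5EL replicates 1 to 5, all within the range of ELKO and below 2 of the 3 EL libraries. The difference from EL was −0.33 (SE 0.09), with a nominal p of 0.00228 and an adjusted p of 0.63 by limma. It kept a nominal p under 0.05 without EL replicate 3 (−0.19, nominal p of 0.0221 by limma). Without EL replicate 1, the EL library nearest to 5EL in this gene, it was −0.48 and the adjusted p was 0.0392 by limma. In that fit 0.196% of all genes had an adjusted p under 0.05, and in no other setting did any collagen pass that threshold. EL replicate 1 also had the highest mean of hepatocyte markers in EL (5.64), and their part in the Col24a1 value was not tested.

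Col11a1 was 6.22, 5.97, 5.96, 6.26 and 5.97 in 5EL, and the 2 higher libraries overlapped with EL. The difference was −0.21 (SE 0.10, nominal p of 0.0476, adjusted p = 0.63 by limma), and without EL replicate 3 it was −0.12 with a nominal p of 0.252. Col1a2 was 8.54 to 8.94 in 5EL (median 8.72) and 8.45 to 8.59 in EL, a difference of 0.17 (SE 0.09, nominal p of 0.0891 by limma). Its highest library was 5EL replicate 1. Col1a1 differed by 0.11 (SE 0.10) and Col3a1, the chain of type III collagen, by 0.01 (SE 0.07).

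Adding 5xFAD to mice without Lilrb4a, the comparison of 5ELKO with ELKO, gave 0 of 38 collagens at an adjusted p under 0.05 (0% of all genes, by limma) and 0 of 38 at a nominal p under 0.05 (2.37% of all genes). No collagen separated these groups, as 3.40% of all genes did. The median difference was −0.03, and without ELKO replicate 2 it was 0.04. In the test of whether the effect of Lilrb4a deletion differed between the 5xFAD and non-5xFAD backgrounds, 0 of 38 had an adjusted p under 0.05 (0% of all genes, by limma) and 1 of 38 had a nominal p under 0.05 (2.63%, against 2.73% of all genes).

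That gene was Col4a6. It was 4.37, 4.39 and 4.40 in EL and 4.41, 4.51 and 4.54 in ELKO, against 4.42 to 4.502 in 5EL (median 4.47) and 4.48, 4.45, 4.32 and 4.41 in 5ELKO. The deletion went with a higher value without 5xFAD (0.10, SE 0.05) and a lower value with 5xFAD (−0.05, SE 0.04). The interaction was −0.15 (SE 0.06, nominal p of 0.0316, adjusted p = 1.0 by limma). It was −0.14 without 5EL replicate 1, with a nominal p of 0.0512, and −0.13 without ELKO replicate 2, with a nominal p of 0.0712. Without ELKO replicate 1, the library with high mouse Apoe, it was −0.19, with a nominal p of 0.00938 and an adjusted p of 0.999 by limma.

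The main capillary chains were examined gene by gene because the 6 type IV genes lie in 3 head-to-head pairs, each transcribed outwards from a common start region. The stretches between or at the paired starts are shown because they set how closely the chains of a pair are linked in the genome. In GENCODE M21 (GRCm38), the starts of Col4a1 (minus strand) and Col4a2 (plus strand) overlap by 22 bases within the exons that begin both transcripts, at chr8:11312805-11312826. Between Col4a4 (minus) and Col4a3 (plus) lie 71 bases, at chr1:82586850-82586920. Col4a6 (minus) and Col4a5 (plus) are 1308 bases apart, and the bases next to each start are given, at chrX:141474077-141474326 (minus strand, upstream of Col4a6) and chrX:141475169-141475384 (plus strand, upstream of Col4a5). Sequences are from RefSeq (GRCm38.p6) and are read 5′ to 3′ on the minus strand, except that upstream of Col4a5. Capitals mark matches, on either strand, to the GC box with the letters GGGCGG, to the box named after its letters CCAAT, and to the TATA box, searched with the letters TATAAA.
Col4a1 and Col4a2 overlap: ttggagacgCCGCCCgcgcact
Col4a4 and Col4a3 gap: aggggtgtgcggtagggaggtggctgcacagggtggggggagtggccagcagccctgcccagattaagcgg
Col4a6 upstream: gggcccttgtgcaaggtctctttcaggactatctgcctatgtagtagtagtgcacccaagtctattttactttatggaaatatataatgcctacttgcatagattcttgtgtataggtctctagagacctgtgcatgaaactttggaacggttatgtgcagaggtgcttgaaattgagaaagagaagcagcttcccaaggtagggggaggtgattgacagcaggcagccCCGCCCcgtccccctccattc
Col4a5 upstream: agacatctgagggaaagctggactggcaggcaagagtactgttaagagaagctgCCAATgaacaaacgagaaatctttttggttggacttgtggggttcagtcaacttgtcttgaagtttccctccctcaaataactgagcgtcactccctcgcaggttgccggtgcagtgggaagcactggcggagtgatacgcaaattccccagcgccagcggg

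The overlap of Col4a1 and Col4a2 holds a GC box, the gap of Col4a4 and Col4a3 none of these motifs, the Col4a6 stretch a GC box and the Col4a5 stretch a CCAAT box. Over the 250 bases before every RefSeq start, a GC box was present in 32.742% of 32851 windows and in 21 of the 35 collagens with a window. A CCAAT box was present in 33.85% of windows and in 12 of the 35 collagens, and a TATA box in 12.368% and 5. The stretches above differ in length and place from these windows. In its own 250-base window Col4a1 had a CCAAT box and no GC box, and Col4a2 had 2 GC boxes and a CCAAT box. Col4a5 had a GC box and a CCAAT box, Col4a6 a GC box only, and Col4a4 none of the motifs. These matches describe the letters only.

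Col4a1 was 9.41, 9.42 and 9.43 in EL and 9.39, 9.33 and 9.29 in ELKO, and Col4a2 was 9.50, 9.47 and 9.48 in EL and 9.29, 9.37 and 9.27 in ELKO. The EL libraries lay within 0.03 of each other in either gene, and no ELKO library reached them. The differences were −0.09 (SE 0.07) for Col4a1 and −0.17 (SE 0.09) for Col4a2, with nominal p-values of 0.266 and 0.0887 and an adjusted p of 0.998 by limma. In 5EL, Col4a1 ranged from 9.17 to 9.46 (median 9.40), and in 5ELKO it was 9.60, 9.34, 9.45 and 9.43. Col4a2 ranged from 9.14 to 9.50 in 5EL (median 9.41) and was 9.63, 9.29, 9.46 and 9.32 in 5ELKO. The lowest library of both genes was 5EL replicate 3 and the highest was 5ELKO replicate 1.

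The difference between 5ELKO and 5EL was 0.09 (SE 0.07) for Col4a1 and 0.06 (SE 0.08) for Col4a2, with 95% intervals of −0.05 to 0.24 and −0.12 to 0.25. For Col4a2 it rested on 5ELKO replicate 1, without which it was −0.00, and on 5EL replicate 3, without which it was 0.01. Without either of these libraries that of Col4a1 was 0.04. Between 5ELKO and ELKO the differences were 0.12 (SE 0.07) and 0.11 (SE 0.09). The interaction was 0.18 (SE 0.10, nominal p of 0.0851) for Col4a1 and 0.23 (SE 0.12, nominal p of 0.0717) for Col4a2, with an adjusted p of 1.0 by limma.

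No genotype comparison called Col4a3, Col4a4 or Col4a5 (adjusted p of at least 0.896 by limma). Col4a5 was 5.97, 6.09 and 6.002 in EL, 6.02, 6.07 and 5.999 in ELKO, 5.89 to 6.12 in 5EL (median 6.03) and 5.99, 6.07, 5.95 and 6.16 in 5ELKO. Its largest difference in size over the 4 comparisons was 0.03 (5ELKO against 5EL, SE 0.07). Col4a3 ranged from 3.73 to 3.81 in EL, 3.74 to 3.85 in 5EL and 3.77 to 3.82 in 5ELKO, and Col4a4 from 4.06 to 4.12, 3.98 to 4.27 and 4.002 to 4.19. In ELKO these genes were 3.75, 4.12 and 3.72, and 4.09, 4.43 and 3.97, with replicate 2 above both of the others. At these low levels the deposited scale draws values together, so differences are understated.

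Chains that assemble together were compared across the 13 libraries other than 5EL replicate 1 and ELKO replicate 2, for 8 pairs of genes. Col4a1 and Col4a2 had Pearson's r = 0.849 (two-sided permutation test, p = 0.00044, adjusted p = 0.00352 over the 8 pairs) and Spearman's rho = 0.577 (permutation p = 0.0414). Without the 2 libraries farthest from the median of Col4a1, r was 0.561. Over the other 7 pairs, which include Col4a3 with Col4a4 (r = −0.144), Col4a5 with Col4a6 (0.0324) and Col1a1 with Col1a2 (0.33), r ranged from −0.144 to 0.507, and the adjusted permutation p was at least 0.31. The libraries span 4 genotype groups, and these coefficients pool them. The permutation treated the 13 libraries as exchangeable, although EL and ELKO libraries of the same number shared deviations, so its p-values may be too small. Pairs of unrelated genes were not compared, so a deviation of whole libraries and a link between 2 chains cannot be told apart.

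Col18a1 and Col15a1, which carry the anti-angiogenic endostatin domain or its relative, showed no called difference. Col18a1 was 8.57, 8.35 and 8.30 in EL, 8.36, 8.52 and 8.49 in ELKO, 8.63, 8.47, 8.44, 8.18 and 8.29 in 5EL, and 8.45, 8.44, 8.70 and 8.37 in 5ELKO. It had means of 8.40 ± 0.17 (SD, n = 5) in 5EL, 8.49 ± 0.14 (n = 4) in 5ELKO, 8.41 ± 0.14 (n = 3) in EL and 8.46 ± 0.08 (n = 3) in ELKO. Col15a1 had means of 7.09 ± 0.18 (SD, n = 5), 7.02 ± 0.15 (n = 4), 7.18 ± 0.22 (n = 3) and 7.05 ± 0.16 (n = 3) in the same order. For either gene, neighbouring groups in the order of their means differed by less than the larger of their SDs. Among 16 partners of the basement membrane (laminins, nidogens, perlecan and others), 0 were at a nominal p under 0.05 in 5ELKO against 5EL, with 4 higher and 12 lower in direction. In 5EL against EL 2 of 16 were higher at this level, against 7.70% of all genes: Nid1, a linker of laminin and type IV collagen, by 0.18, and the laminin chain Lamc1 by 0.18, each with an adjusted p of 0.63 by limma.

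Col25a1, the most abundant collagen per kilobase and the plaque-associated transmembrane type, showed no called difference between any groups. It was 12.03, 11.93, 11.84, 11.71 and 11.85 in 5EL and 12.06, 12.10, 11.82 and 11.77 in 5ELKO. It was 12.09, 12.05 and 11.75 in EL and 12.08, 11.91 and 11.98 in ELKO. All 4 groups overlapped, and the order of means was ELKO (11.99), EL (11.96), 5ELKO (11.94) and 5EL (11.87). The difference was 0.06 (95% interval −0.11 to 0.23) for 5ELKO against 5EL, 0.02 (−0.20 to 0.25) for ELKO against EL, −0.09 (−0.29 to 0.11) for 5EL against EL and −0.05 (−0.26 to 0.16) for 5ELKO against ELKO. The sign in ELKO against EL turned without EL replicate 3 (−0.08) and without ELKO replicate 1 (−0.02). In 5EL against EL the difference was −0.23 (SE 0.09, nominal p of 0.0258 by limma) in 1 further setting. That setting left out 5EL replicate 1, ELKO replicate 2 and EL replicate 3 together, a set chosen after seeing the data.

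The genes that process, bind or degrade collagen were read in the same comparisons. Of the enzymes that modify, fold and trim procollagen (28 in the files), 0 of 26 tested were at a nominal p under 0.05 in 5ELKO against 5EL, against 2.49% of all genes, and 2 of 27 were in ELKO against EL, against 2.35%. These were Pcolce2, an enhancer of C-propeptide removal, higher by 0.29, and the C-proteinase Bmp1, lower in ELKO at −0.18, each with an adjusted p of 0.998 by limma. In 5EL against EL 1 of 27 was, P4hb at 0.09 (7.70% of all genes), and in 5ELKO against ELKO 1 of 27 (2.37% of all genes), Pcolce2 at −0.24 (adjusted p = 0.999 by limma). Of 9 receptors tested, 0 had a nominal p under 0.05 in 3 of the 4 comparisons (2.35% to 2.49% of all genes). In 5EL against EL 1 of 9 did, where 7.70% of all genes did. This was Mrc2, which takes up collagen for degradation, higher by 0.24 in 5EL (adjusted p = 0.63 by limma). Of 7 collagen-degrading proteases and inhibitors tested, 0 passed this level in 5ELKO against 5EL (2.49% of all genes) or in 5ELKO against ELKO (2.37%). In 5EL against EL (7.70% of all genes) the inhibitors Timp2 (0.30) and Timp4 (−0.26) passed it in opposite directions, each with an adjusted p of 0.63 by limma. In ELKO against EL (2.35% of all genes) only the gelatinase Mmp9 (0.10) passed it, with an adjusted p of 0.998 by limma. For the interaction 2.73% of all genes had a nominal p under 0.05. Of 27 enzymes tested, Pcolce2 (−0.41) and Pcolce (−0.68) did with a negative sign and Bmp1 (0.21) with a positive sign. Of the 9 receptors 0 did, and of the 7 proteases and inhibitors only Mmp9 (−0.16). In each of these lists 0 genes had an adjusted p under 0.05 by limma. With so few genes in each list, a share is set by very few of them.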

How the data were processed

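The authors aligned reads to GRCm38 with HISAT2 2.2.1, counted read pairs by gene name without strand with featureCounts 2.0.3, used DESeq2 1.38.3, and deposited 1 column of log2 values per library (−2.27 to 18.98). The transform and the annotation release are not given in the sources used here, counts and the read totals that the study gives for 5EL and 5ELKO libraries were not used here, and the files themselves do not show the depth behind a value. Values of low genes were drawn together (median within-group SD 0.00376 below a mean of 0, 0.115 for means of 6 to 8), so differences of low genes are understated. Because the values are on a log2 scale, no count model was run. limma 3.58.1 in R 4.3.3 (lmFit, eBayes with trend, Benjamini-Hochberg adjustment over all genes) was fitted to genes at 3.32 or more, the log2 of 10, in 4 of 9 libraries (5ELKO against 5EL, 15743 genes) or 3 of 15 (the other comparisons, 15804 genes). Nominal p-values are unadjusted limma values. They measure the spread between libraries, which nothing in the labels ties to separate animals. The study states that samples were picked at random from 5EL and 5ELKO mice. Its quality data include a further 5ELKO library that is not among those read here. RNA integrity in those data reached lower values in 5ELKO than in 5EL and was not used here. Labels number the replicates within groups and name no shared origin. Deviations of same-numbered libraries correlated at 0.325 to 0.742 over the 3 ELKO and EL pairs, which were therefore also fitted with a block. Of 105 pairs of libraries 0 were identical. Exonic lengths and positions are from GENCODE M21 (GRCm38), and starts for sequences from RefSeq (GRCm38.p6).

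All 44 collagens were accounted for. Values by library were given for members at an adjusted p under 0.05, for up to 4 members with the smallest nominal p under 0.05 in each comparison, and for Col25a1, the head-to-head pairs and the members highest per kilobase. Col5a2, Col8a1, Col8a2 and Col9a3 were named after their values were seen. Members and lists were chosen with earlier results of these data known. The fits were tested on simulated data. Figures were drawn with matplotlib 3.10.9 in Python 3.11.15.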

Additional observations from a re-analysis of the deposited data

Results flagged for a closer look

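Within groups of 4 or 5 libraries, 7 of 88 sets of values (44 collagens in 5EL and 5ELKO) had a highest library far from the rest, measured as the gap to the nearest other library divided by the whole range of the group. For independent sets chance gives about 1 in 20. These sets share their libraries, so 1 unusual library can yield several, and 7 of 88 cannot be read as an excess. All 7 were in 5EL, and 4 of them were in replicate 1, the library with high choroid plexus markers: Col8a1 (ratio 0.741, 7.69 against 6.78 in the nearest library), Col9a3 (0.715, 8.64 against 7.97), Col15a1 (0.765, 7.40 against 7.08) and Col17a1 (0.801, 3.84 against 3.61). In replicate 2 they were Col6a3 (0.756, 5.385 against 5.11) and Col9a1 (0.949, 3.67 against 3.44), and in replicate 3 Col14a1 (0.806, 3.95 against 3.77). Their relation to the markers was not tested.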

How the results depend on the processing

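Under no alternative run except 1 did a collagen reach an adjusted p under 0.05: without EL replicate 1 the count for 5EL against EL was 1 (Col24a1), and leaving out the other libraries gave 0. Leaving out each library in turn moved the number of collagens at a nominal p under 0.05 between 0 and 2 for 5ELKO against 5EL, 1 and 7 for ELKO against EL, 1 and 4 for 5EL against EL, 0 and 2 for 5ELKO against ELKO, and 0 and 3 for the interaction. For ELKO against EL the count of 1 came without EL replicate 3 (1.36% of all genes in that fit) and that of 7 without ELKO replicate 3 (8.72%). The 4 for 5EL against EL came without 5EL replicate 4 (6.78% of all genes) or without EL replicate 1 (20.2%), and the 3 for the interaction without 5ELKO replicate 2 (2.16%). The 1 for 5EL against EL came without 5EL replicate 2 (5.84%), 5EL replicate 3 (7.14%) or EL replicate 3 (2.24%). The 2 for 5ELKO against 5EL came without 5EL replicate 2 (3.34%) or 5EL replicate 5 (2.84%). The 2 for 5ELKO against ELKO came without ELKO replicate 1 (5.02%). The median difference of the collagens then ranged from −0.0059 to 0.081 for ELKO against EL and from −0.038 to 0.039 for 5ELKO against ELKO.

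Without 5EL replicate 1 and ELKO replicate 2 together, the nominal count was 1 for 5ELKO against 5EL (3.06% of all genes) and 0 for the interaction (1.85%). The median was then 0.039 for 5ELKO against ELKO and 0.028 for the interaction. Without EL replicate 3 as well, a set chosen after seeing the data, the nominal count was 0 for ELKO against EL (1.23% of all genes). It was 0 for 5ELKO against ELKO (2.79%). For 5EL against EL it was 3 (7.89%, against 2.66% of all genes), with Col25a1, Col24a1 and Col12a1 lower in 5EL. For the interaction it was 1, Col6a2 (2.63%, against 2.22%). The medians were −0.038 for ELKO against EL, 0.039 for 5ELKO against ELKO and 0.046 for the interaction. Other filters or fits gave a nominal count of 1 for 5EL against EL. These were no filter (5.74% of all genes), a stricter filter at a log2 value of 5 (7.92%), or only the libraries of the 2 groups (5.81%). The count was 0 for the interaction with the stricter filter (2.43%) or with libraries recentred on their median (2.97%). With the stricter filter the median was 0.012 for 5ELKO against ELKO and 0.018 for the interaction. The cause of these shifts was not tested.

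With the replicate number as a block, the nominal count was 5 for ELKO against EL (7.06% of all genes), 2 for 5ELKO against 5EL (Col9a2 and Col16a1, 2.44% of all genes) and 5 for the interaction (4.96%). The block gives no weight to 5EL replicate 5, which has no partner, and leaving that library out without a block gave the same 2 genes for 5ELKO against 5EL. Outside ELKO and EL the numbers were not shown to pair libraries, with same-number correlations of −0.244 to 0.143 (5ELKO and 5EL), 0.0538 to 0.228 (5EL and EL) and −0.32 to 0.214 (5ELKO and ELKO). The sign turned for uncalled differences of Col25a1 in 5ELKO against ELKO (0.0051 with the block, and −0.11 to 0.0054 over single libraries left out) and in ELKO against EL (−0.0401 without the 3 libraries, −0.081 to 0.087 over single libraries). It also turned for Col8a1 in ELKO against EL (−0.069 without the 3 libraries) and Col4a2 in 5ELKO against 5EL (−0.0048 without 5ELKO replicate 1, up to 0.11 over single libraries).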
